A study of Mus musculus with 86 samples.

Results

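Adora2a, Gpr6, Ppp1r1b, Rgs9, Pde10a, Tac1 and Scn4b are 7 genes whose transcripts mark the projection neurons of the striatum. They were found in a table of 35275 genes by matching their Ensembl identifiers to these symbols. The matching used no measured value, but the set was chosen with earlier results of these data known. Each of the 7 was counted in every library, and each passed the filter on low counts in every comparison.

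Striatal projection neurons are the GABAergic output cells of the caudate, putamen and accumbens. They receive dopamine from the midbrain, and they answer it through cAMP: neurons of the direct pathway carry the Drd1 receptor and express Tac1, and neurons of the indirect pathway carry the Drd2 receptor and express Adora2a, Gpr6 and Penk. Ppp1r1b, Rgs9, Pde10a and Scn4b are shared by both pathways.

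The samples were RNA-seq libraries from wild house mice (Mus musculus domesticus) of a barn population in Switzerland, collected near sunrise outside the breeding season. Animals came from both tails of the distribution of egocentric social network size, and the labels call the tails high gregariousness (large networks) and low gregariousness (small networks). By the study's account, the large networks of males were less extreme than those of females. Prefrontal cortex, hippocampus and hypothalamus were punched from coronal cryostat sections of the same brains, so that 29 animals gave 86 libraries, and the striatum was not among the regions. Each group held 7 libraries, except for males with small networks, which had 8 in the cortex and in the hippocampus. No mouse had been treated and no allele had been altered. The groups therefore differ in whatever else goes with network size in free-living animals. By the study's methods they did not differ significantly in estimated age. The mean age given there was nonetheless lower in males with small networks than in males with large networks. In females it was higher with small networks. The part of age in the differences below was not tested.

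Libraries held 33711824 to 81865801 counted reads, with a median of 44778419. Levels are given below as CPM, counts scaled to a common library total with factors from edgeR. Marker genes of excitatory cortical neurons summed to 1943 to 3020 CPM in the cortex, 1278 to 1827 in the hippocampus and 149 to 468 in the hypothalamus. The 10 hypothalamic markers summed to 9.49 to 17.9 CPM in the cortex, 8.19 to 101 in the hippocampus and 149 to 1551 in the hypothalamus. Hippocampal markers did not set their region apart, since their sums of 484 to 677 CPM overlapped with 523 to 681 in the hypothalamus. Choroid plexus markers reached 443 CPM in the cortex, 1504 in the hippocampus and 324 in the hypothalamus.

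The genes lie on 5 chromosomes (GRCm38 coordinates, GENCODE annotation). Adora2a, an adenosine receptor that raises cAMP, spans positions 75316877 to 75334784 on the plus strand of chromosome 10. Gpr6, an orphan receptor that is active without a ligand, spans 41069977 to 41072285 on the minus strand of the same chromosome. Ppp1r1b, which encodes the inhibitor of protein phosphatase 1 that is switched on by protein kinase A, spans 98348404 to 98357796 on the plus strand of chromosome 11. Rgs9, whose protein shortens signalling by inhibitory G proteins, spans 109225355 to 109298129 on the minus strand of chromosome 11. Pde10a, a phosphodiesterase that breaks down cAMP and cGMP, spans 8525372 to 8986648 on the plus strand of chromosome 17. Tac1, the precursor of substance P, spans 7554879 to 7565834 on the plus strand of chromosome 6. Scn4b, an auxiliary subunit of voltage-gated sodium channels, spans 45138395 to 45154152 on the plus strand of chromosome 9. An opposite-strand gene, 1700003D09Rik, shares 460 exon bases with Ppp1r1b, and without a stated strand setting reads of these genes cannot be told apart.

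The sequence before the transcription start is shown for those of the 7 genes with a searched motif. RefSeq promoter windows (GRCm38.p6, 250 bases before the start) were at hand for 5 of the 7 genes, and 6 motifs were searched on both strands: the cAMP response element TGACGTCA, its shorter form TGACG, the AP-1 site TGACTCA, the TATA box TATAAA, the GC box GGGCGG and the E-box CACGTG. Capitals mark the matches, and each sequence is written 5′ to 3′ on the strand of its gene. The start is that of a RefSeq transcript, which can differ from the gene spans given above. The Pde10a windows lie inside the span of the gene, and the Tac1 and Scn4b windows run past the first base of theirs.
Gpr6 (chr10:41072291-41072540, minus strand): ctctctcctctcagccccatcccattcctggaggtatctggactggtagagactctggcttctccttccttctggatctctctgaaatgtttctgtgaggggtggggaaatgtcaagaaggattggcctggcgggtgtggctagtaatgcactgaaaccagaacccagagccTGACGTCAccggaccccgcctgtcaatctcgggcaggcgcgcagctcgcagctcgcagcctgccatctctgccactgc
Tac1 (chr6:7554811-7555060, plus strand): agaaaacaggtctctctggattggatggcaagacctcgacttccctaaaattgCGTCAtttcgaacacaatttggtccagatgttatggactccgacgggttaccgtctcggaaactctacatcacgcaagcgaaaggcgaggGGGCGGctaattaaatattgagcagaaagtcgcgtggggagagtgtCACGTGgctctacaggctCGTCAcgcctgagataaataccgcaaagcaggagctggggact
Rgs9 (chr11:109298182-109298431, minus strand): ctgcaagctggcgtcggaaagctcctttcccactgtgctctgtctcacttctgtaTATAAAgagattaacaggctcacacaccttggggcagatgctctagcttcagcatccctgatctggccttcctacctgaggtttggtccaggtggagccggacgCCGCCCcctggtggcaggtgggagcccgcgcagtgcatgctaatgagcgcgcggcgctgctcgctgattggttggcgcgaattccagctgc
Pde10a (chr17:8801495-8801744, plus strand): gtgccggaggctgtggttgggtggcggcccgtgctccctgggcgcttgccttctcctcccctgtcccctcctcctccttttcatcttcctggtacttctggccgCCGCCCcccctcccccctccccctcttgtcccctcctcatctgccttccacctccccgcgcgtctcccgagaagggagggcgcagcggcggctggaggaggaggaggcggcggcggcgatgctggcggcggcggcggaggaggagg
The full cAMP response element was present in the Gpr6 window alone, 78 bases before the start, where it also holds the shorter form on each strand. It was found in 1.55% of the 32851 windows in the table. Tac1 had the shorter form 197 and 43 bases before the start, on the other strand, and 17.8% of windows hold it. Its window also held a GC box (32.7% of windows) and an E-box (6.02% of windows). Rgs9 had a TATA box 195 bases before the start, which 12.4% of windows have at some position, and a GC box on the other strand. Pde10a had a GC box only, and a base composition of 72.8% G and C against a median of 52.4% over windows. The Scn4b window and another Pde10a window held none of the 6 motifs. These are matches of letters and nothing about binding was measured.

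Levels differed widely between regions and, in the cortex, between libraries of the region. Adora2a had a lowest, median and highest level of 1.69, 8.33 and 60.05 CPM in the cortex, 2.20, 8.93 and 17.2 in the hippocampus and 30.04, 63.5 and 114 in the hypothalamus. Gpr6 had 0.716, 2.54 and 13.6 CPM in the cortex, 1.19, 2.47 and 4.49 in the hippocampus and 7.78, 15.7 and 27.4 in the hypothalamus. For both receptors every hypothalamus library was above every hippocampus library, while the cortex had the widest range, with a highest to lowest ratio of 35.4 for Adora2a and 18.97 for Gpr6. At the low end Gpr6 rested on 28 counts and Adora2a on 54 counts in a cortex library.

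Among the signalling genes, Ppp1r1b had 79.6, 131 and 329 CPM in the cortex, 53.5, 88.1 and 163 in the hippocampus and 103, 241 and 512 in the hypothalamus. Rgs9 had 10.6, 21.4 and 79.6 CPM in the cortex, 12.03, 18.6 and 26.3 in the hippocampus and 58.5, 116 and 182 in the hypothalamus. Pde10a had 64.9, 101 and 227 CPM in the cortex, 79.6, 88.3 and 110 in the hippocampus and 105, 195 and 364 in the hypothalamus. Pde10a was thus the steadiest member in the hippocampus, where its highest library was 1.38 times its lowest. Tac1 had 6.16, 11.7 and 33.5 CPM in the cortex, 12.2, 19.9 and 31.0 in the hippocampus and 38.6, 85.9 and 123 in the hypothalamus. Scn4b had 93.9, 186 and 313 CPM in the cortex, 46.8, 77.7 and 113 in the hippocampus and 63.4, 135 and 246 in the hypothalamus. Scn4b was the only member with its highest median in the cortex.

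**Figure D1:**
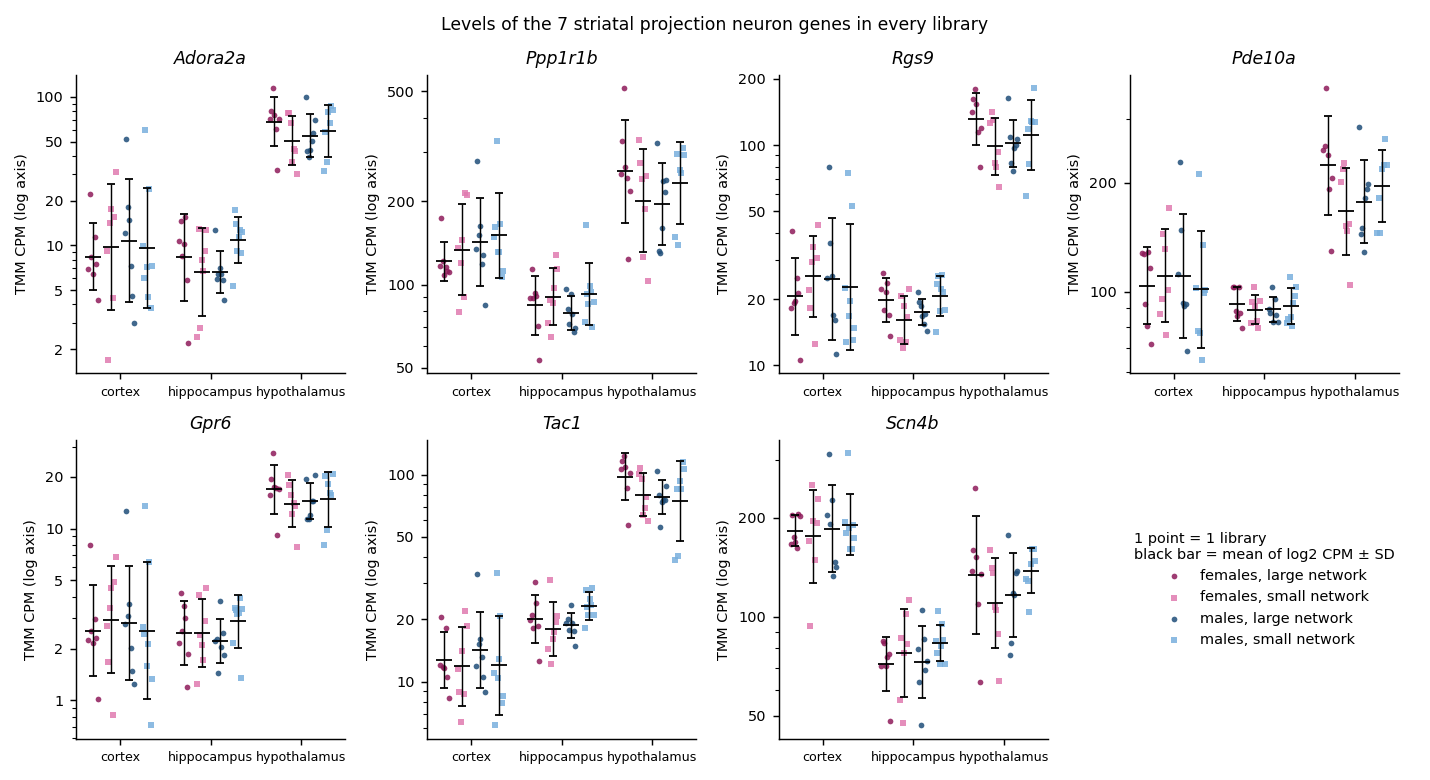
Levels of the 7 genes in each library (TMM-scaled CPM, log axis), 1 point per library, by region, sex and network size; black bars are the mean ± SD of log2 CPM of a group. The hypothalamus has the highest group means for every gene but Scn4b, and 2 cortex libraries reach 60.05 and 52.2 CPM of Adora2a, above the other cortex libraries.

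Divided by exon length, the order of the levels was much the same across regions at its ends. Ppp1r1b was highest in every region, with a mean of 49.5 ± 18.8 CPM per kb in the cortex (SD, n = 29), 30.3 in the hippocampus and 80.4 ± 30.05 in the hypothalamus (SD, n = 28). Scn4b came next with 37.9 ± 9.31, 15.7 and 25.95 CPM per kb in the same order. Gpr6 was lowest throughout, with 2.004 ± 1.78, 1.498 and 8.76 CPM per kb. Between these ends the order was less firm. In the cortex Pde10a (8.73 ± 3.08 CPM per kb) was above the next gene in 28 of 29 libraries. Adora2a (4.45 ± 4.47), Rgs9 (4.22 ± 2.70) and Tac1 (4.09 ± 2.01 CPM per kb) lay within 1 SD of each other, with Adora2a above Rgs9 in 10 of 29 libraries and Rgs9 above Tac1 in 14. In the hippocampus Pde10a (7.09) was above Tac1 (6.03 CPM per kb) in 23 of 29 libraries, and Rgs9 (2.96) was above Adora2a (2.95 CPM per kb) in 15. In the hypothalamus Scn4b was above Tac1 (25.1 CPM per kb) in 15 of 28 libraries, so these neighbours were not separated. There Tac1 was above Adora2a (20.1 CPM per kb) in 25 of 28, Adora2a above Rgs9 (18.05) in 20 and Rgs9 above Pde10a (15.3 CPM per kb) in 26, although the SDs of each pair overlapped.

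Within the cortex the members were among the most variable genes of the region. The SD of log2 CPM of Adora2a over libraries was 1.17, against a median of 0.174 over 14837 genes, and 0.768% of genes had a larger SD. For Gpr6 0.984% of genes had a larger SD, for Rgs9 1.61%, for Tac1 2.5%, for Ppp1r1b 4.81%, for Pde10a 4.93% and for Scn4b 10.9%. This did not hold for each member in each region: in the hippocampus 57.1% of genes varied more than Pde10a, which had an SD of 0.139 against a median of 0.152.

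A few libraries carried the extremes. The cortex libraries of animal 10 (male, small network) and animal 20 (male, large network) were each among the 3 highest for 7 of the 7 members. In the hypothalamus the library of animal 3 (female, large network) was among the 3 highest for 7 of 7, and that of animal 27 (female, small network) was among the 3 lowest for 6. The library of animal 19 (female, large network), the only library that the study's methods name as low in RNA integrity, was among the 3 lowest for 5. The main results that rest on these libraries are given below with and without them.

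Regions were compared in a model with the animal as a block (edgeR's quasi-likelihood test with Benjamini-Hochberg adjustment over 18769 genes). Here and below, a bulk level cannot tell fewer cells of a type from less RNA per cell. With the block, p-values rest on how the differences between regions vary from animal to animal. In the comparisons within a region below they rest on the spread between animals. Each animal gave at most 1 library per region. All 7 genes were called higher in the hypothalamus than in the hippocampus, where 76.4% of all genes were called, 36.8% higher and 39.5% lower. Adora2a was higher by 2.87 ± 0.23 on the log2 scale (SE, adjusted p = 6.21e-18), Gpr6 by 2.61 ± 0.19 (adjusted p = 7.58e-20) and Rgs9 by 2.59 ± 0.13 (adjusted p = 1.55e-26). These are fitted folds of 7.30, 6.12 and 6.04. Tac1 was higher by 2.04 ± 0.12 (adjusted p = 2.83e-23), Ppp1r1b by 1.39 ± 0.12 (adjusted p = 1.75e-16), Pde10a by 1.09 ± 0.09 (adjusted p = 2.98e-16) and Scn4b by 0.70 ± 0.10 (adjusted p = 9.73e-09). The difference held in 28 of 28 animals for Adora2a, Gpr6, Rgs9, Tac1 and Pde10a, in 27 for Ppp1r1b and in 25 for Scn4b. For Adora2a, Gpr6, Rgs9 and Tac1 no hypothalamus library overlapped with a hippocampus library, as was the case for 10.5% of genes with a mean of at least 1 CPM.

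Against the hypothalamus, 6 genes were called lower in the cortex and Scn4b was called higher (81.3% of all genes called, 42.2% lower and 39.1% higher). Tac1 was lower by the most, with a log2 difference of -2.65 ± 0.13 (SE, adjusted p = 1.66e-28), and its cortex and hypothalamus libraries did not overlap (16.8% of genes with a mean of at least 1 CPM). Adora2a differed by -2.47 ± 0.23, Gpr6 by -2.34 ± 0.19, Rgs9 by -2.20 ± 0.13, Pde10a by -0.83 ± 0.09 and Ppp1r1b by -0.70 ± 0.12 on the log2 scale, with adjusted p between 2.03e-23 for Rgs9 and 3.29e-07 for Ppp1r1b. Scn4b was higher in the cortex by 0.56 ± 0.10 (adjusted p = 1.29e-06), in 24 of 28 animals.

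Cortex and hippocampus differed less. Of the 7 genes, 5 were called (72.0% of all genes, 33.3% higher in the cortex and 38.8% lower). Scn4b was higher in the cortex by 1.27 ± 0.10 on the log2 scale (SE, adjusted p = 2.01e-17) in 29 of 29 animals, and Ppp1r1b by 0.69 ± 0.12 (adjusted p = 3.75e-07) in 26 of 29. Rgs9 was higher by 0.40 ± 0.13 (adjusted p = 0.00565) and Pde10a by 0.26 ± 0.09 (adjusted p = 0.0113). Tac1 went the other way, by -0.61 ± 0.12 (adjusted p = 1.43e-05), and was lower in the cortex in 26 of 29 animals. Adora2a (0.40 ± 0.23, adjusted p = 0.107, 95% interval -0.04 to 0.85) and Gpr6 (0.27 ± 0.19, adjusted p = 0.205, 95% interval -0.11 to 0.64) did not pass, and Adora2a was higher in the cortex in 15 animals and lower in 14. The cortex and hippocampus libraries overlapped for each of the 7 genes, while those of 5.06% of genes with a mean of at least 1 CPM did not overlap. Without the cortex libraries of animals 10 and 20, a choice made after seeing the data, 4 genes were called: Pde10a no longer passed (0.16 ± 0.08, adjusted p = 0.0805), Rgs9 stood at 0.25 ± 0.11 (adjusted p = 0.0487), and Adora2a and Gpr6 came down to 0.14 ± 0.20 and 0.03 ± 0.16. The hypothalamus remained apart in that fit, with Adora2a at -2.69 ± 0.20 and Tac1 at -2.78 ± 0.11 for cortex against hypothalamus.

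**Figure D2:**
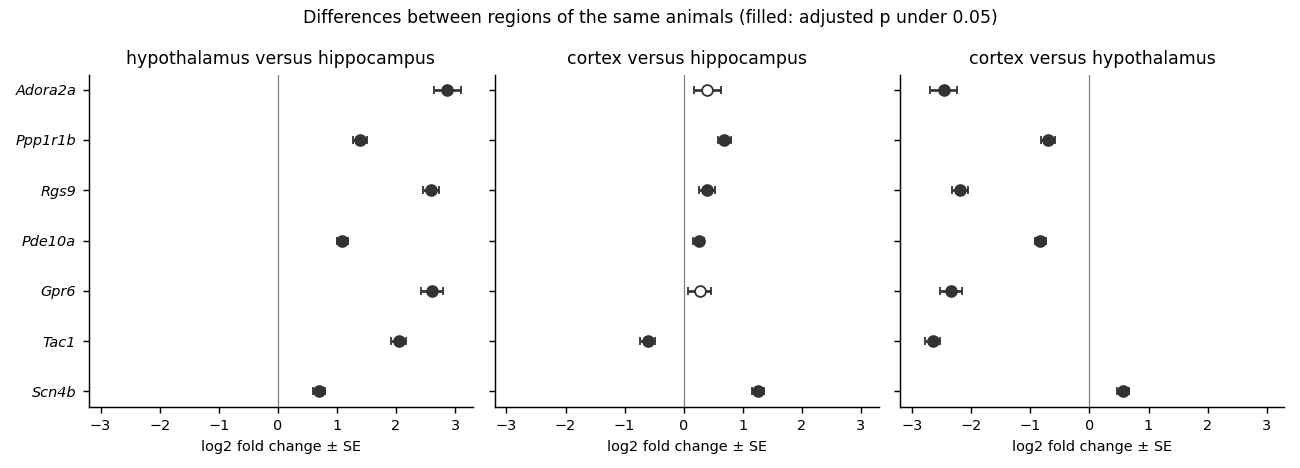
Log2 differences between regions of the same animals for the 7 genes, as points with SE bars (edgeR, animal block), filled where the adjusted p was under 0.05. Hypothalamus against hippocampus is positive for every gene, from 0.70 for Scn4b to 2.87 for Adora2a, and Scn4b alone is higher in the cortex than in the hypothalamus.

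Other genes of these pathways were drawn from lists that were written down with earlier results of the series known. Their counts stand beside 36.8% of all genes called higher and 39.5% called lower in the hypothalamus than in the hippocampus. Of 25 further genes enriched in projection neurons of both pathways, 17 were called higher and 6 lower in the hypothalamus than in the hippocampus, with a median of 0.81 on the log2 scale against -0.01 over all genes. The most abundant of them moved apart: Adcy5, the adenylyl cyclase of the striatum, was higher by 1.19, Rgs7bp, an anchor of the Rgs9 complex, stood at -0.78, and Arpp21 at -0.15 did not pass (adjusted p = 0.0545). Of 7 indirect-pathway genes 7 were called higher, among them Penk (2.10), Gucy1a1 (0.53) and Grik3 (0.39), and of 8 direct-pathway genes 6 were higher and 1 lower, with Pdyn at 2.45 and Sfxn1 at 0.44. The dopamine receptors were higher too, Drd1 by 1.76 and Drd2 by 2.42, with mean levels of 17.03, 13.04 and 44.7 CPM for Drd1 and 6.34, 6.57 and 34.3 CPM for Drd2 in cortex, hippocampus and hypothalamus. Markers of striatal interneurons split into 5 higher and 2 lower of 8.

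Genes that work with the members but are used by many kinds of neuron split in direction, as did all genes (36.8% called higher and 39.5% lower). Of 23 genes of the cAMP and protein phosphatase pathway around Ppp1r1b, 11 were called higher and 12 lower in the hypothalamus than in the hippocampus, with a median of -0.11: Ppp3ca, the calcineurin subunit, stood at -1.13, and the kinase subunits Prkar1b and Prkar1a at 0.17 and 0.11. Of 8 genes of adenosine handling, 4 were higher and 2 lower, with Adora1, the inhibitory adenosine receptor, at -1.05, adenosine kinase Adk at -0.24 and the transporter Slc29a1 at 0.71. Of 7 partners of Rgs9, 2 were higher and 5 lower, Gpr158 at -0.15 and Gnb5 at -0.08 among the lower. Of 5 tachykinin genes beside Tac1, 3 were higher and 1 lower, and those most abundant were higher: Tac2 by 1.79, Tacr3 by 1.67 and the substance P receptor Tacr1 by 2.26. Of the 2 orphan receptors related to Gpr6, Gpr12 was lower (-0.11) and Gpr3 at 0.01 did not pass (adjusted p = 0.824). Of 8 neuronal sodium channel subunits beside Scn4b, 3 were higher and 5 lower, with Scn8a at -0.77 and Scn2a at -0.39.

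Over all genes edgeR called 33.3% higher and 38.8% lower in the cortex than in the hippocampus. Against the hypothalamus 39.1% were called higher and 42.2% lower. Between cortex and hippocampus, 16 of the 25 shared projection neuron genes were called higher in the cortex and 5 lower (median 0.27), with 3 higher and 3 lower of the 8 direct-pathway genes and 4 higher and 0 lower of the 7 indirect-pathway genes by edgeR. Between cortex and hypothalamus 9 of the 25 were higher in the cortex and 14 lower (median -0.40), with 2 higher and 6 lower of the direct-pathway and 2 higher and 5 lower of the indirect-pathway genes. The cAMP pathway around Ppp1r1b was mostly higher in the cortex, with 15 of 23 genes higher against the hippocampus and 15 against the hypothalamus, and 6 and 5 of the 7 partners of Rgs9 were higher there as well. Tachykinin genes had 1 higher and 3 lower of 5 in both comparisons, adenosine genes 2 higher and 5 lower of 8 in both, and sodium channel subunits 5 higher and 3 lower of 8 in both.

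Within each region the 7 genes rose and fell together across animals. In the hypothalamus the 21 pairs had a Pearson r of 0.652 (Tac1 and Scn4b) to 0.948 (Adora2a and Pde10a), with a median of 0.863. In the cortex r ran from 0.463 (Tac1 and Scn4b) to 0.946 (Rgs9 and Gpr6), with a median of 0.797. In the hippocampus it ran from -0.00870 (Ppp1r1b and Pde10a) to 0.864 (Adora2a and Rgs9), with a median of 0.548. Over the 63 pairs, a permutation test with 100000 resamples and Benjamini-Hochberg adjustment called 21 pairs in the hypothalamus, 21 in the cortex and 17 in the hippocampus by Pearson's r, and 21, 20 and 16 by Spearman's rho. The libraries of a pair share their depth and their punch, so the points of each relation are not free of common technical variation.

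The closest pair of each region shows the range. Rgs9 and Gpr6 in the cortex had r = 0.946 and rho = 0.9502 (both permutation p = 1e-05, the smallest that the resamples can give, adjusted p = 1.66e-05 and 1.91e-05), and r = 0.916 without the 2 libraries farthest from the median. Adora2a and Pde10a in the hypothalamus had r = 0.948 and rho = 0.917 with the same permutation p, and r = 0.946 without the 2 farthest. Adora2a and Rgs9 in the hippocampus had r = 0.864 and rho = 0.855, again with the smallest permutation p, and r = 0.857 without the 2 farthest. The weakest cortex pair, Tac1 and Scn4b, had r = 0.463 (permutation p = 0.0123, adjusted p = 0.0139) but rho = 0.275 (adjusted p = 0.159), and r = 0.125 without the 2 farthest, so that this relation rests on those libraries.

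The 2 cortex libraries that stood apart raised the cortical correlations. Without animals 10 and 20 the cortex median over pairs was 0.678 with a highest value of 0.916, and all 21 pairs kept a positive sign. Without animal 3 the hypothalamus median was 0.847. Correlations of the deviations from sex and network group means gave medians of 0.826, 0.533 and 0.867 in cortex, hippocampus and hypothalamus. Animals with large and small networks had medians of 0.877 and 0.777 in the cortex, 0.621 and 0.464 in the hippocampus and 0.919 and 0.857 in the hypothalamus, a difference that was not tested.

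Pde10a in the hippocampus was the exception. Its mean r with the other 6 genes was 0.183 there, against 0.742 in the cortex and 0.885 in the hypothalamus. Adora2a had the highest mean r with the others in every region, with 0.854 in the cortex, 0.676 in the hippocampus and 0.915 in the hypothalamus. Scn4b had the lowest mean r in the cortex (0.644) and in the hypothalamus (0.799).

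**Figure D3:**
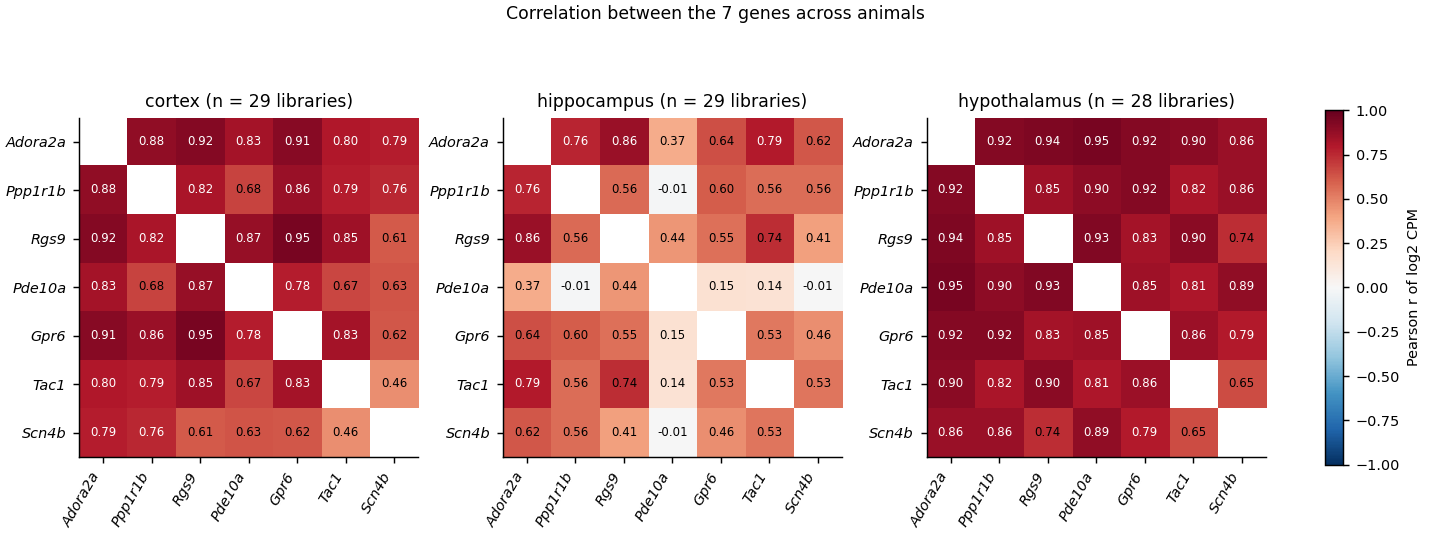
Pearson r of log2 CPM over libraries for each of the 21 pairs of genes in cortex, hippocampus and hypothalamus, as a colour scale with the value in each cell. The hypothalamus panel is high throughout (0.652 to 0.948), and the row of Pde10a is pale in the hippocampus, where its mean r was 0.183.

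The share of each gene that moved with Adora2a was read from straight lines of CPM on Adora2a CPM, as a description. Gpr6 gained 0.226 ± 0.00991 CPM per CPM of Adora2a in the cortex (slope ± SE), 0.162 ± 0.0326 in the hippocampus and 0.185 ± 0.0179 in the hypothalamus. Ppp1r1b gained 3.75 ± 0.277, 3.90 ± 0.693 and 3.67 ± 0.325 CPM in the same order, with intercepts (the level at which the line meets no Adora2a) of 93.8 ± 5.30, 53.5 ± 6.84 and 9.52 ± 21.2 CPM. Without the library of animal 3 the hypothalamus line of Ppp1r1b had a slope of 3.22 ± 0.323 and an intercept of 33.5 ± 20.3 CPM, so both rested in part on that library. Scn4b had intercepts of 151 ± 7.15, 60.3 ± 6.72 and 33.5 ± 9.86 CPM with slopes of 2.78, 1.98 and 1.56, and in the hypothalamus 43.4 ± 9.76 and 1.37 without animal 3. Pde10a had a slope of 2.62 in the cortex and 2.46 in the hypothalamus but 0.876 in the hippocampus, and Tac1 had 0.454, 0.831 and 0.946. Rgs9 gained 1.22, 0.884 and 1.44 CPM per CPM. Without the cortex libraries of animals 10 and 20 the cortical slopes were 0.235 ± 0.0201 for Gpr6, 3.66 ± 0.564 for Ppp1r1b and 1.39 ± 0.106 for Rgs9. Without animal 3 the hypothalamus slopes were 0.174 ± 0.0202 for Gpr6, 1.5001 ± 0.130 for Rgs9, 2.25 ± 0.154 for Pde10a and 1.01 ± 0.0936 for Tac1.

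**Figure D4:**
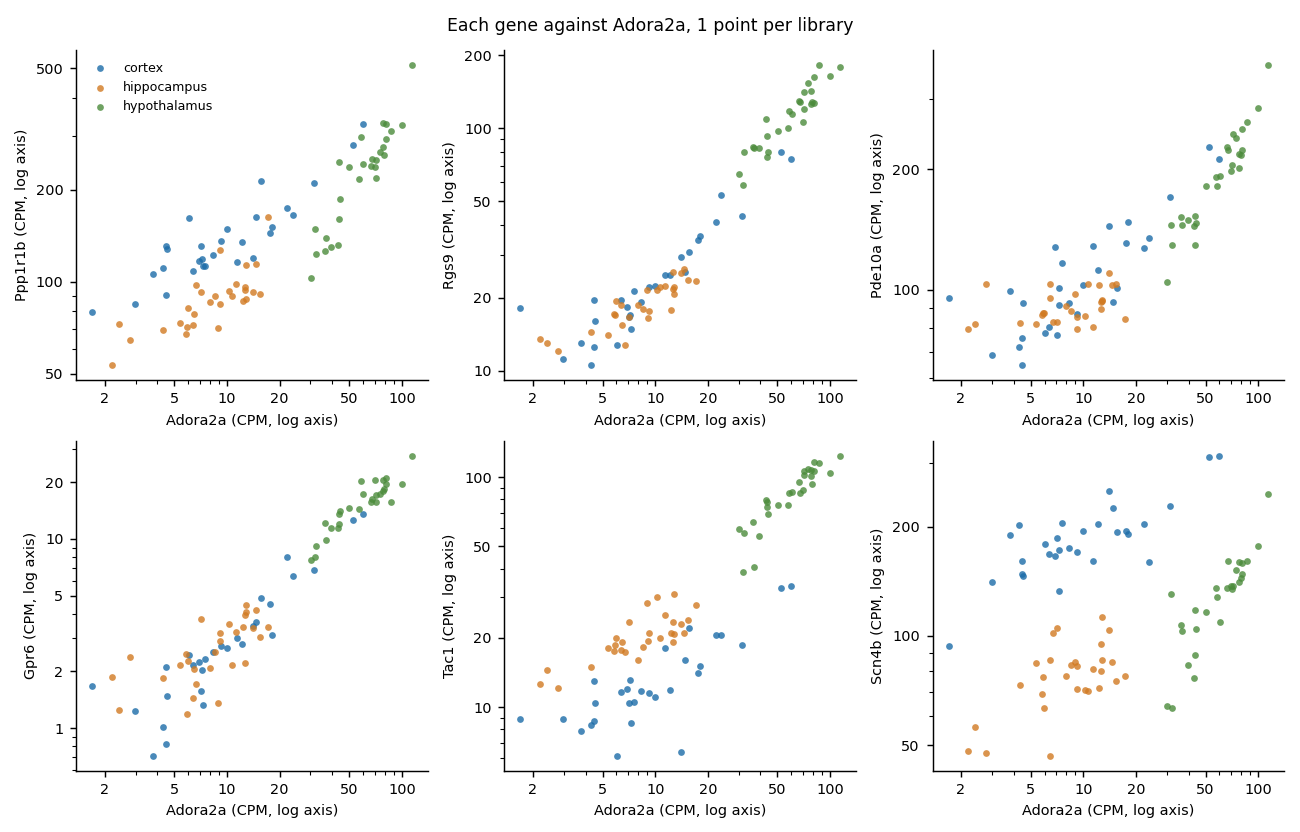
CPM of each other gene against CPM of Adora2a on log axes, 1 point per library, coloured by region. Hypothalamus libraries lie between 30.04 and 114 CPM of Adora2a, the Gpr6 points of the regions fall along a common band, and the Scn4b points fall in separate bands with the cortex on top.

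Relations of the same member between regions of an animal's brain mostly did not pass after adjustment. Over 21 relations between regions (7 genes, 3 pairs of regions), only Pde10a in cortex and hippocampus passed, with r = 0.642 and rho = 0.675 over 29 animals (permutation test, adjusted p = 0.0063 and 0.00273) and r = 0.715 without the 2 farthest animals. All 7 genes had a negative r between cortex and hypothalamus, from -0.425 to -0.116 with a median of -0.360, and 0 of these 7 passed the permutation test after adjustment (3 had an unadjusted p under 0.05, smallest adjusted p = 0.138). Without the 2 farthest animals the median was -0.201. Between cortex and hippocampus 6 of the 7 genes had a positive r, with a median of 0.371. There 4 genes, Pde10a among them, had an unadjusted permutation p under 0.05. Between hypothalamus and hippocampus 5 were positive (median 0.0915), and 0 had such a p.

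Genes outside the set were ranked by their mean r with the 7 members over the libraries of a region, among genes with a mean of at least 1 CPM. In the hypothalamus the nearest genes included Rarb (mean r 0.910) and Drd1 (0.904), and then Gng7, Slc35d3, Penk, Pde1b, Inf2, Serpina9 and Tesc (0.884). In the cortex the order was Slc5a7 (0.871), Lrrc10b (0.864), Drd2 (0.860) and Drd1 (0.855), followed by Syndig1l, Sh3rf2, Six3, Gng7, Rarb and Serpina9 (0.827). In the hippocampus they included Sh3rf2 (0.670), and Klhl13, Ptprv, Drd2, Slc35d3, Chat, Adgrv1, Penk and Drc3 (0.558) followed. Of the 10 nearest genes of each region, 6 in the cortex, 4 in the hippocampus and 7 in the hypothalamus were on the projection neuron lists. A mean r above 0.5 was reached by 157 of 14830 genes in the cortex, 36 of 15011 in the hippocampus and 830 of 15130 in the hypothalamus. Without the libraries of animals 10 and 20 the cortex had 54 such genes and kept 9 of its 10 nearest, and without animal 3 the hypothalamus had 722 and kept 9.

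Markers of other cell types and areas moved with the members to different degrees. The 25 shared projection neuron genes had a median mean r of 0.598 in the cortex (0.396 without animals 10 and 20), 0.192 in the hippocampus and 0.781 in the hypothalamus (0.775 without animal 3). The 6 oligodendrocyte markers stood at 0.571 in the cortex (0.450 without animals 10 and 20) and at -0.517 in the hypothalamus (-0.447 without animal 3). Thalamic markers stood at -0.463 in the hypothalamus, with Slc17a6, a vesicular glutamate transporter, at -0.717. Claustrum markers stood at 0.414 in the cortex (0.317 without animals 10 and 20), from -0.0689 for Gng2 to 0.581 for Gnb4. In the hippocampus choroid plexus markers stood at 0.476, ependymal markers at 0.385 and oligodendrocyte markers at 0.302. The part of these cell types in the co-variation was not tested.

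For network size, animals with small networks were compared with animals with large networks within each sex and region. Of the 7 genes, edgeR called 0 in any of the 6 comparisons, and DESeq2 called 0 as well. Over all genes edgeR called 0.0113% in the female cortex, 0.00552% in the female hypothalamus, and 0.0% in the female hippocampus and in the 3 male comparisons. The study, which used DESeq2, reported more genes than edgeR called here in each of the female comparisons. These edgeR shares are therefore no background for the DESeq2 result. At an unadjusted p under 0.05 edgeR had 3 of the 7 in the male hippocampus (3.88% of all genes), 2 in the female hypothalamus (7.39%) and 0 in the other 4 comparisons, where 9.59% (female cortex), 2.52% (male cortex), 12.2% (female hippocampus) and 2.9% (male hypothalamus) of all genes had such a p. DESeq2 gave the same counts of members.

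In the male hippocampus all 7 genes had a higher fitted level with small networks, with a median log2 difference of 0.26 against -0.00244 over all genes. Adora2a had a lowest, median and highest level of 5.36, 11.8 and 17.2 CPM with small networks and 4.32, 6.41 and 12.6 with large networks. The groups overlapped, with means of 11.4 ± 3.59 (SD, n = 8) and 6.95 ± 2.63 CPM (SD, n = 7). The log2 difference was 0.71 ± 0.23 (SE, 95% interval 0.27 to 1.15, edgeR p = 0.00582, adjusted p = 0.999), and the two-sided exact permutation p of the CPM means was 0.0208. Tac1 had 18.1, 23.2 and 28.4 CPM with small networks and 14.9, 19.2 and 23.4 with large networks. It differed by 0.31 ± 0.10 (edgeR p = 0.00587, adjusted p = 0.999), with means of 23.4 ± 3.52 and 18.9 ± 2.63 CPM and an exact permutation p of 0.016. Rgs9 had 14.1, 21.9 and 25.6 against 14.4, 17.1 and 21.6 CPM, and 0.25 ± 0.12 on the log2 scale (edgeR p = 0.0479, adjusted p = 0.999, exact permutation p = 0.08). Pde10a was level, at 0.04 ± 0.07 with an interval of -0.10 to 0.17. None of the 7 passes the adjustment over all genes. Of 42 exact permutation comparisons of a member (7 genes, 3 regions, both sexes), 2 had p under 0.05, those of Adora2a and Tac1 here.

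In the female hypothalamus all 7 genes had a lower fitted level with small networks, with a median log2 difference of -0.37. Pde10a had 105, 153 and 227 CPM with small networks and 129, 239 and 364 with large networks. The groups overlapped, and the difference was -0.44 ± 0.19 on the log2 scale (SE, 95% interval -0.82 to -0.06, edgeR p = 0.0385, adjusted p = 0.658, exact permutation p = 0.0763). Rgs9 had 64.4, 93.2 and 142 CPM against 79.6, 141 and 179, and differed by -0.40 ± 0.19 (edgeR p = 0.0446, adjusted p = 0.660, exact permutation p = 0.0781). Adora2a differed by -0.43 ± 0.24 and Tac1 by -0.29 ± 0.16, and neither had an unadjusted p under 0.05. When a library was left out in turn, the count of members with an unadjusted p under 0.05 was 0 without any of animals 1, 2, 3, 9, 21, 23, 25 or 27, 4 without animal 5 and 6 without animal 19, whose RNA integrity was low. Without animal 19 Pde10a stood at -0.54 ± 0.17 (edgeR adjusted p = 0.373) and the median of the 7 at -0.50, and without animal 3 the median was -0.23. No member was called in any of these fits. Since the 7 genes are correlated across these libraries, their 7 signs are not independent.

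Fitted differences of other markers are given for the same groups, and edgeR called 0 of these genes. Over all genes 48.9% had a positive difference in the female hypothalamus and 48.7% in the male hippocampus. Signs of genes in a list are not independent where the genes are correlated across libraries. In the female hypothalamus the 5 markers of dopamine neurons were all higher with small networks (median log2 difference 0.91, smallest adjusted p = 0.142 by edgeR), with sums of 105 to 399 CPM against 93.0 to 160. The 6 oligodendrocyte markers were all higher as well (median 0.28, sums 3988 to 6859 against 3410 to 5496 CPM), and 8 of 10 hypothalamic markers were lower (median -0.17, sums 348 to 1491 against 622 to 1387 CPM). Of the 25 shared projection neuron genes, 24 had a negative difference (median -0.23). In the male hippocampus choroid plexus markers had a median of 0.04 and sums of 363 to 946 CPM with small (median sum 789.7) and 427 to 964 with large networks (median sum 526.98), 4 of 5 astrocyte markers were lower (median -0.12), and 17 of the 25 projection neuron genes were positive (median 0.05). The part of these markers in the members' differences was not tested. By edgeR 0 genes of the lists were called for network size in either sex. DESeq2 called 6 of 175 list genes in the female hypothalamus and 0 in the other 5 comparisons: Th (0.90, adjusted p = 0.000168), Ddc (0.72, adjusted p = 0.000297), Slc6a3 (3.32, adjusted p = 0.00251) and Slc18a2 (1.01, adjusted p = 0.0208), which make, carry or store dopamine, and the astrocyte markers Aldh1l1 (0.23, adjusted p = 0.0249) and Gja1 (0.19, adjusted p = 0.0365), all higher with small networks. The share of all genes that DESeq2 called is not given here, so this count has no background to be set against.

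The remaining comparisons within sex gave smaller or wider differences. In the male hypothalamus all 7 genes were positive with a median of 0.13, from 0.04 for Tac1 to 0.25 for Ppp1r1b, and in the female hippocampus the median was -0.06. In the female cortex the median was 0.21, with Adora2a at 0.49 ± 0.47 (0.13 to 0.86 when a library was left out). In the male cortex the median was -0.07 and the errors were widest, with Adora2a at -0.07 ± 0.64 and Gpr6 at 0.00 ± 0.59 on the log2 scale (SE). The highest library of each male group stood far above the others. Adora2a had 3.78, 7.18 and 60.05 CPM in males with small networks and 2.99, 12.2 and 52.2 in males with large networks. Without these 2 libraries Adora2a stood at -0.14 ± 0.45, Gpr6 at 0.06 ± 0.40 and Rgs9 at 0.01 ± 0.33 in the male cortex, and 0 of the 7 were called by edgeR.

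**Figure D5:**
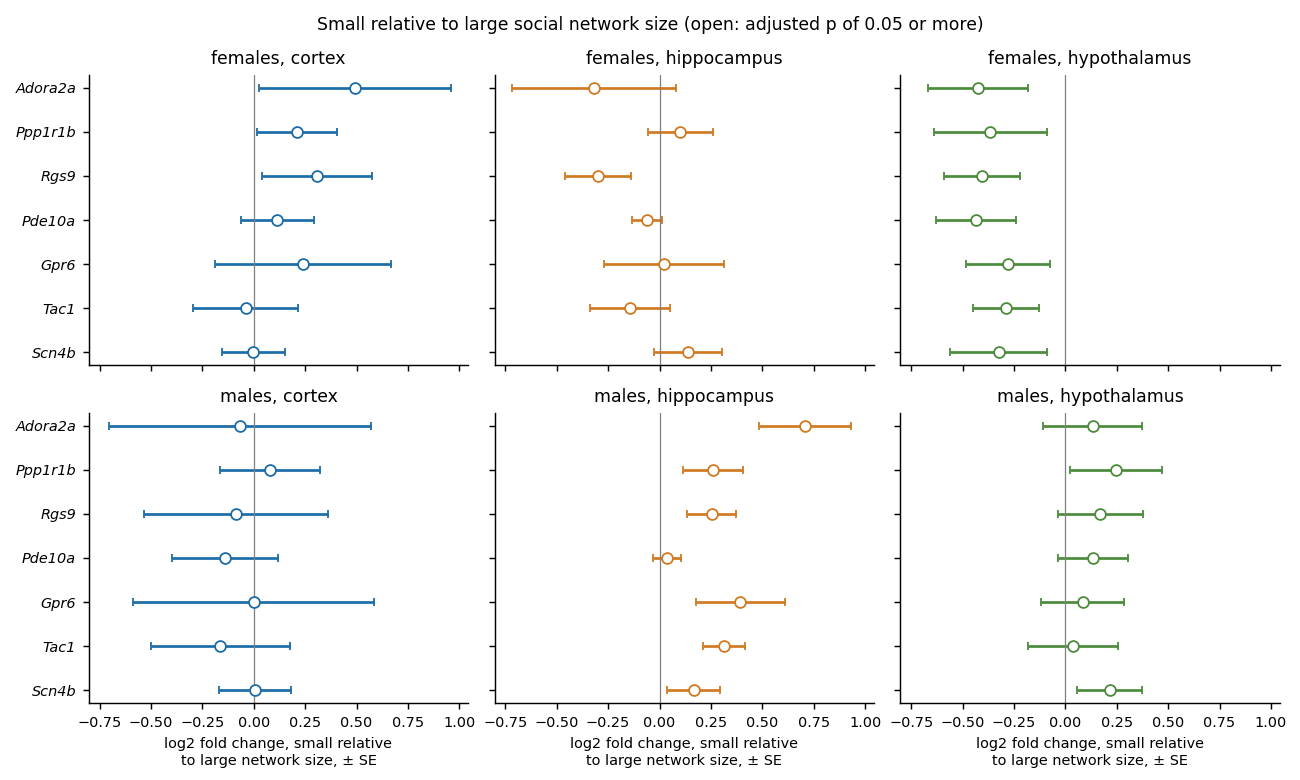
Log2 differences of small relative to large networks for the 7 genes by sex and region, as points with SE bars (edgeR); all points are open because no adjusted p was under 0.05. All 7 points are above 0 in the male hippocampus (median 0.26) and below 0 in the female hypothalamus (median -0.37), and the SE of Adora2a in the male cortex is the widest at 0.64.

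The effect of network size was also compared between the sexes. Of the 7 genes, 0 were called by edgeR or by DESeq2 in any region, and edgeR called 0.0% of all genes in each. Unadjusted p under 0.05 was reached in the hippocampus by Adora2a (female minus male effect -1.02 ± 0.48, adjusted p = 0.662) and Rgs9 (-0.55 ± 0.21, adjusted p = 0.641), and in the hypothalamus by Pde10a (-0.57 ± 0.27, adjusted p = 0.787), with 0 in the cortex. Over all genes 7.37% in the hippocampus, 6.14% in the hypothalamus and 4.17% in the cortex had such a p by edgeR. By DESeq2 the counts were 3, 1 and 0. The signs of the effects of these genes thus differed between the sexes in the fits, but the differences did not pass the test over all genes.

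Over both sexes together, 0 of the 7 genes were called for network size by edgeR or DESeq2 in any region (0.0163% of all genes in the cortex, 0.0% in the hippocampus and in the hypothalamus), and 0 had an unadjusted p under 0.05 (8.16%, 8.94% and 3.39% of all genes in the same order). Females and males also gave 0 calls by either tool, against 0.0921% of all genes in the cortex, 0.102% in the hippocampus and 0.117% in the hypothalamus, and 0 with an unadjusted p under 0.05 (4.96%, 6.02% and 6.73% of all genes). The largest of these sex differences was that of Adora2a in the cortex, lower in females by a log2 difference of -0.45 ± 0.43. That direction rested on the male libraries of animals 10 and 20: without them Adora2a stood at 0.28 ± 0.35 and Gpr6, at -0.21 ± 0.39 with them, at 0.45 ± 0.31, with 0 of the 7 called.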

How the data were processed

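Gene counts were deposited as a table of whole-number read counts per Ensembl gene, 1 column per library. The submitters' processing notes name CASAVA 1.8.2, STAR, DESeq2 and mm10, and the authors counted reads per gene with HTSeq. The annotation release and the strand setting of the counting are not given in the sources used here. The library kit does not mark strand. All 86 columns were matched to samples by name, and 0 columns belonged to no sample. Of 35275 genes, 34490 were found in GENCODE vM21, which gave exon lengths and positions. RNA of 1 hypothalamus of a male with a small network was lost, and per the study's methods 1 hypothalamus of a female with a large network had a low RNA integrity number.

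Counts were scaled with TMM factors. Tests used edgeR 4.0.16 in R 4.3.3 (quasi-likelihood, threshold 0.05 after Benjamini-Hochberg adjustment), after low genes were removed by filterByExpr (count 10, total 15, proportion 0.7), with DESeq2 1.42.0 as an alternative. Network size was fitted within sex and region, sex by network size per region, and regions with the animal as a block: same-numbered samples are, by their titles, the same animal. Correlations between members and between regions used log2 CPM over libraries with 100000 resamples. Neighbours and SDs were ranked on log2(CPM + 0.1) over genes with a mean of at least 1 CPM. Single-gene permutation tests enumerated all splits of the animals. The smallest p they allow is 0.000583 for 7 against 7 and 0.000311 for 8 against 7. Counting error is small beside the spread between animals at these depths. The scripts were tested on simulated counts.

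Genes named in the text are the 7 members, the 3 most abundant genes of each pathway list and the 10 nearest neighbours per region. Slc17a6 and the list genes called by DESeq2 alone were named after their values were seen. Members and lists were chosen with earlier results of these data known. Gpr52 and Pde2a were not analysed here. Some genes that the rule names are not reported here. Motif windows came from a RefSeq promoter table. Alternatives were RLE normalization, no filter on low counts, all 4 groups in a single fit, no block and leaving out each animal. Leaving out the cortex libraries of animals 10 and 20 was added after seeing the data.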

Additional observations from a re-analysis of the deposited data

Results flagged for a closer look

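Within groups of 7 or 8 libraries, the highest or lowest library was set against its nearest neighbour with Dixon's criterion, which chance alone passes in about 1 in 20 groups. It was passed in 16 instances over 84 groups of a member, region, sex and network size. Most were in the cortex. The library of animal 10 (male, small network) stood alone with 60.05 CPM of Adora2a, 13.6 of Gpr6, 329 of Ppp1r1b and 313 of Scn4b. The library of animal 20 (male, large network) did so with 52.2 CPM of Adora2a, 12.6 of Gpr6, 280.0 of Ppp1r1b, 79.6 of Rgs9 and 33.0 of Tac1. The library of animal 2 (female, large network) did so with 22.2 CPM of Adora2a, 7.998 of Gpr6 and 174 of Ppp1r1b.

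In the hippocampus the library of animal 11 (male, large network) held 12.6 CPM of Adora2a, that of animal 7 (male, small network) held 163 CPM of Ppp1r1b, and that of animal 26 (female, large network) was the lowest of its group with 48.1 CPM of Scn4b. In the hypothalamus animal 11 had 164 CPM of Rgs9. The flagged values of a library are not independent of each other, because the members are correlated across libraries. No difference between the sexes in the effect of network size met the criterion for a closer look.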

How the results depend on the processing

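Of 580 results recomputed under alternatives other than leaving out an animal, 562 were rated as the same. For single genes this meant the same direction and the same side of the threshold. Counts of calls could still change a little. Median correlations had to keep their sign and move by less than their SD. Values near zero changed sign for Scn4b in the female cortex (-0.00136, against 0.00508 with RLE normalization, 0.00193 with DESeq2 and 0.00308 with 4 groups in a single fit), for Gpr6 in the male cortex (0.000357, against -0.00543 with DESeq2 and -0.00052 with 4 groups) and for Scn4b over both sexes in the cortex (0.00439, against -0.00373 without the filter). Without the cortex libraries of animals 10 and 20, chosen after seeing the data, signs turned for Rgs9 in the male cortex (0.00707), for Pde10a over both sexes (0.00746) and, between females and males, for Adora2a (0.281), Rgs9 (0.181), Pde10a (0.191), Gpr6 (0.454), Tac1 (0.1502) and Scn4b (0.062). Without the replicate block, which pairs regions of an animal, Adora2a passed between cortex and hippocampus (0.585, adjusted p = 0.0184) and 6 members were called in place of 5. Deviations from group means gave 2 correlations between regions in place of 1, adding Rgs9, and the cortex to hypothalamus median moved to -0.201 without the 2 farthest animals.

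Leaving out each animal in turn, which was done for the 6 comparisons within sex, called 0 members. The log2 differences ran over zero in the female cortex for Pde10a (-0.00267 to 0.194), Gpr6 (-0.00352 to 0.706), Tac1 (-0.223 to 0.105) and Scn4b (-0.0961 to 0.110), and in the male cortex for Adora2a (-0.836 to 0.627), Ppp1r1b (-0.153 to 0.304), Rgs9 (-0.463 to 0.383), Pde10a (-0.347 to 0.104), Gpr6 (-0.634 to 0.701), Tac1 (-0.482 to 0.142) and Scn4b (-0.124 to 0.166). They also did so for Gpr6 in the female hippocampus (-0.147 to 0.168), Pde10a in the male hippocampus (-0.00462 to 0.0737), and Gpr6 (-0.00366 to 0.194) and Tac1 (-0.0733 to 0.153) in the male hypothalamus. Adora2a (0.597 to 0.918) and Tac1 (0.265 to 0.373) kept their sign in the male hippocampus. The limits of these data are the 7 or 8 animals per group, punches whose marker sums varied within a region, and a counting strand that was not stated. Levels of the least abundant members, Gpr6 and Adora2a, rested on 28 and 54 counts at their lowest.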
